A study of Mus musculus with 9 samples.

Results

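The CC chemokine ligands of myeloid cells are described here across blood monocytes and brain macrophages after ischemic stroke. The members were taken by name: Ccl2, Ccl3, Ccl4, Ccl5, Ccl6, Ccl7, Ccl8, Ccl9, Ccl12 and Ccl24, which are 10 of the 53801 genes listed in each library. All 10 had an Ensembl identifier in the count files and all 10 had counts in at least 1 library.

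CC chemokines are small secreted proteins with adjacent cysteines near the N-terminus. They bind G protein-coupled receptors on leukocytes and draw those cells along a concentration gradient into tissue. Ccl2, Ccl7 and Ccl12 signal to monocytes through Ccr2, whereas Ccl3 and Ccl5 are ligands of Ccr1. In injured brain, ligands made by macrophages and microglia are known to recruit further leukocytes.

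RNA was sequenced from cells sorted as CD11c-Ly6G-CD11b+CD45high, a gate for monocytes and macrophages, of male C57BL/6J mice aged 9 weeks in every group. The 3 stroke brain libraries and the 3 stroke blood libraries came from mice 5 days after permanent distal middle cerebral artery occlusion (dMCAO) with ligation of the left common carotid artery, and the 3 sham blood libraries came from sham-operated mice, whose day of collection the labels do not name. Each brain library pooled 5 lesioned hemispheres, and each blood library was 1 mouse, so that the spread between brain libraries is a spread between pools. Brain cells were freed by enzymatic dissociation with heating and Percoll, and blood cells by Ficoll, so that tissue and isolation cannot be told apart, and there was no sham brain group.

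The libraries held between 18475118 and 22623578 counts, so that 3 counts corresponded to between 0.133 and 0.162 CPM, the counts of a gene scaled to the library total and the unit of levels below unless another is named. Markers of monocytes and macrophages summed to between 87260 and 123700 CPM in blood and between 45850 and 51280 CPM in brain. Lyz2 alone held most of this sum, at 79520 to 115600 CPM in blood and 38690 to 42810 CPM in brain. Of the 8 markers, 6 did not pass the thresholds given below between stroke brain and stroke blood. Markers of other cell types moved with tissue, and their part in the results was not tested. All 8 microglia markers were higher in brain than in stroke blood, with summed levels of 836.5 to 2509 CPM against 24.2 to 35.7 CPM, and Sall1, a transcription factor of microglia, had no count in any blood library. All 6 erythroid markers were lower in brain (4.16 to 14.5 CPM against 13770 to 18410 CPM), and sham blood replicate 1 stood apart from the other sham blood libraries with 1221 CPM of erythroid markers against 34110 and 30390 CPM. In the same comparison 5 of 6 platelet markers and 2 of 8 monocyte markers (Ly6c2 and Lyz2) were lower in brain, 5 of 7 neutrophil markers were higher and 1 lower, 1 of 2 astrocyte and 1 of 2 endothelial markers were higher, and none of 4 B cell markers and 1 basophil marker tested differed by the test. In bulk RNA, fewer cells of a type and less RNA per cell cannot be told apart.

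Brain macrophages had higher levels of most of these ligands than blood monocytes of the same stroke model. Of the 10 genes, 9 were tested between stroke brain and stroke blood, 7 of these were upregulated and 1, Ccl9, was downregulated, where a differentially expressed gene (DEG) differed by more than 1 on the log2 scale at an adjusted p below 0.05 in edgeR. Among all 13189 genes tested, 13.1% were upregulated and 7.86% downregulated. The median log2 fold change of the 9 genes was 3.55, and that of all genes tested was 0.06. In each of the 9 genes the brain and stroke blood libraries did not overlap, as in 49.2% of all genes tested. Ccl7 and Ccl12 passed the filter on low counts through the brain libraries alone, and Ccl8 did not pass it because only 2 brain libraries reached 10 counts.

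**Figure D1:**
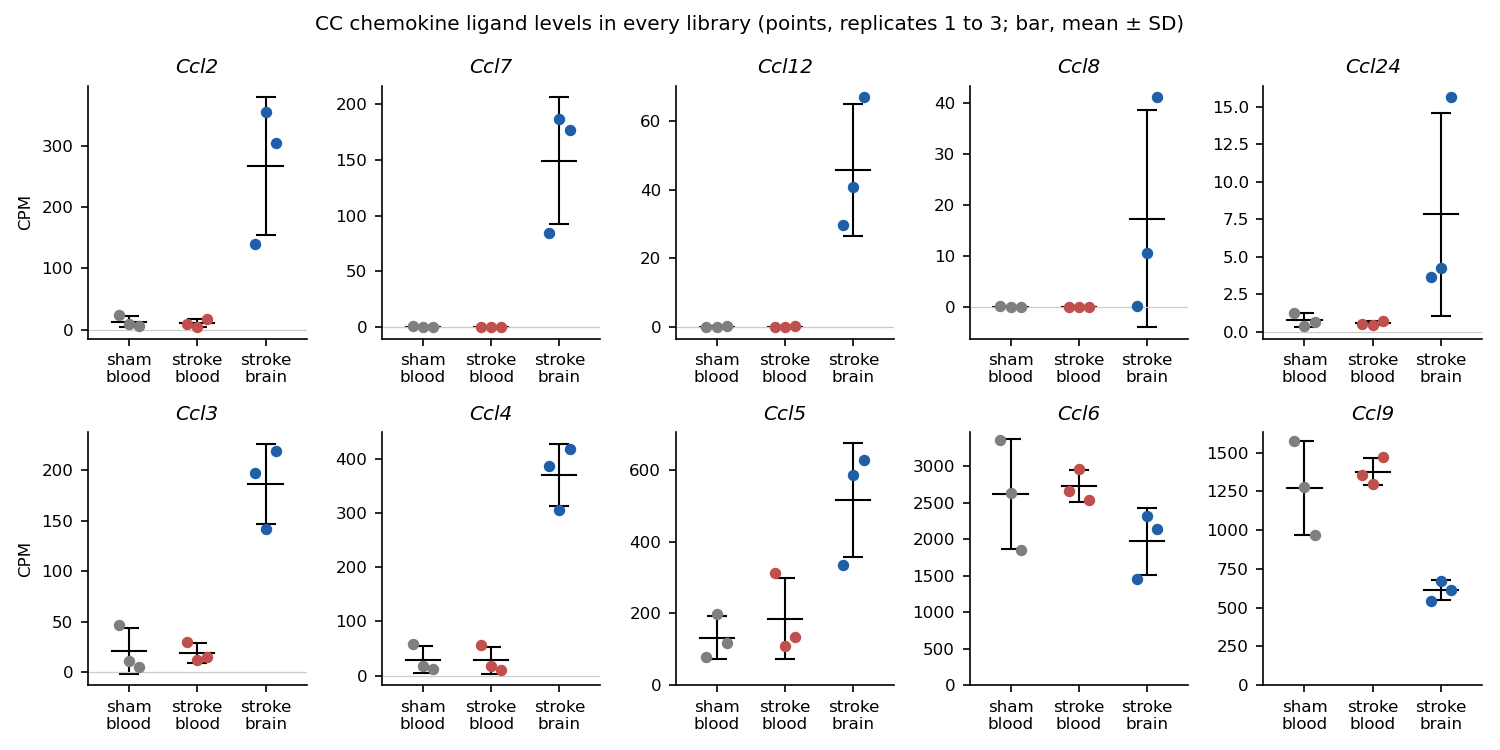
Level of each ligand in CPM (vertical axes, linear, a scale for each gene) in the 3 libraries of sham blood, stroke blood and stroke brain. Points are libraries, and bars are the mean ± SD (n = 3). Ccl2, Ccl7 and Ccl12 sit near 0 in blood and above it in all 3 brain libraries, whereas Ccl9 lies between 545 and 673 CPM in brain and between 969 and 1576 CPM in blood.

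The genes of the monocyte chemoattractant group, Ccl2, Ccl7, Ccl12 and Ccl8, showed the widest distance between tissues. Ccl2, the main ligand of Ccr2 and the signal by which monocytes leave the marrow and enter inflamed tissue, was at 140.0, 355 and 304 CPM in brain replicates 1, 2 and 3. It was at 9.26, 4.96 and 17.4 CPM in stroke blood. All brain libraries were above all blood libraries, and the log2 fold change was 4.50 (SE 0.51, adjusted p = 0.00032), a 22.6-fold difference.

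Ccl7, a further Ccr2 ligand that also reaches Ccr1 and Ccr3, was close to absent from blood. It had 1577, 4230 and 3832 counts in the brain libraries, or 149 ± 56.8 CPM (SD, n = 3), and 1, 0 and 4 counts in the stroke blood libraries. The ratio of the summed counts, scaled to library totals, 9639 against 5, was 1860 (exact 95% interval 797 to 5730, counting error only). The fitted log2 fold change, which depends on the prior count at such low levels, was 10.57 (SE 0.61, adjusted p = 1.1e-05). It was 9.92 without stroke blood replicate 2 and 12.16 without replicate 3.

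Ccl12, the rodent chemokine also called MCP-5, which acts through Ccr2, followed the same contrast at a lower level. It had 556, 924 and 1447 counts in brain (45.8 ± 19.1 CPM) and 1, 0 and 4 counts in stroke blood. Brain replicate 3 was the highest, and no blood library came near the brain libraries. The ratio of the summed counts, scaled to library totals, was 565 (exact 95% interval 242 to 1740), with a fitted log2 fold change of 8.86 (SE 0.64, adjusted p = 2.88e-05). That value was 8.21 without stroke blood replicate 2 and 10.45 without replicate 3.

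Ccl8, which in mice signals through Ccr8, varied more between the brain libraries than any other member. Its counts were 4, 238 and 887 in brain replicates 1, 2 and 3, a level of 0.213, 10.5 and 41.0 CPM. No count fell on Ccl8 in any stroke blood library. Brain replicate 1 was thus nearly at the level of blood, while replicates 2 and 3 were far above it. Over the group the brain level was at least 363-fold higher than stroke blood, taking a floor of 3 counts over the 3 stroke blood libraries. It was not tested in the fit as filtered. It was a DEG without the filter on low counts (adjusted p = 0.000135), with DESeq2 (adjusted p = 0.000505) and without brain replicate 1 (adjusted p = 0.000558), and it missed the threshold without stroke blood replicate 2 (adjusted p = 0.0505) or 3 (adjusted p = 0.0531).

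Markers of resident macrophages were read beside this group in the brain libraries. The summed microglia markers were at 836.5, 1148 and 2509 CPM in brain replicates 1, 2 and 3, the same rank order as Ccl12. Ccl5, Ccl8 and Ccl24 had this order as well. Ccl12 amounted to 3.54%, 3.56% and 2.67% of that sum. Ccl2 amounted to 16.7%, 30.9% and 12.1% of it, and was highest in replicate 2. Lyve1, a hyaluronan receptor that marks border-associated macrophages, had 4, 128 and 301 counts in brain replicates 1, 2 and 3 and at most 1 count in a blood library, a course like that of Ccl8. Of the 7 markers of border-associated macrophages 6 were tested, and 4 were higher and 1, F13a1, was lower in brain than in stroke blood. The sum of the 7 was 1116 to 1340 CPM in brain against 1453 to 2697 CPM in stroke blood. F13a1 held most of it, at 923 to 1089 CPM in brain and 1399 to 2634 CPM in stroke blood, so the sum follows F13a1 and not the 4 higher markers. The part of resident macrophages in the ligand results was not tested.

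Ccl24, the eosinophil attractant eotaxin-2 and a ligand of Ccr3, was the lowest of the members that were detected in every library. It had 68, 96 and 338 counts in the brain libraries, 3.63, 4.24 and 15.6 CPM, and 11, 10 and 13 counts in the stroke blood libraries. Brain replicate 3 was again the highest, and the groups did not overlap. The log2 fold change was 3.63 (SE 0.66, adjusted p = 0.00343), and without brain replicate 3 it was 2.64 (adjusted p = 0.0119). Markers of eosinophils summed to between 99.2 and 203.5 CPM in brain and between 1.79 and 55.5 CPM in stroke blood. Of these 5 markers, 3 were higher in brain, Prg2, Epx and Ear6. Brain replicate 1, the lowest in Ccl24, held the largest sum. Prg2, at 140.7, 34.21 and 25.86 CPM in brain replicates 1, 2 and 3, Epx and Ear6 were highest there. Siglecf (10.98, 16.09 and 21.93 CPM) and Ccr3 (13.38, 39.56 and 50.43 CPM) had the same replicate order as Ccl24. The part of eosinophils in the Ccl24 level was not tested.

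Ccl3 and Ccl4, the inflammatory proteins MIP-1 alpha and MIP-1 beta, rose together. Ccl3 was at 198, 142 and 219 CPM in brain and at 30.54, 12.01 and 15.27 CPM in stroke blood. Ccl4 was at 387, 307 and 418 CPM in brain and at 56.9, 18.0 and 10.8 CPM in stroke blood. For both genes brain replicate 2 was the lowest brain library and still stood above every blood library, and stroke blood replicate 1 was the highest of its group. The log2 fold change was 3.12 (SE 0.35, adjusted p = 0.000282) for Ccl3 and 3.55 (SE 0.53, adjusted p = 0.0013) for Ccl4. Without stroke blood replicate 1 that of Ccl4 was 4.50 (adjusted p = 0.000205). Per kilobase of exon, Ccl4 exceeded Ccl3 by 2.27, 2.50 and 2.21 times in brain replicates 1, 2 and 3.

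Early response genes, which are induced within minutes of stimulation and also by tissue dissociation, were also higher in brain. Of 13 such genes 10 were higher in brain than in stroke blood, with a sum of 13430 to 17780 CPM in brain and 3828 to 4992 CPM in stroke blood. The transcription factors Atf3, Egr1 and Junb and the phosphatase Dusp1 had the lowest p among them, with log2 fold changes of 3.33, 4.79, 2.18 and 2.11. Within brain the genes of this list did not share an order. Fos, Jun, Egr1, Dusp1 and Btg2 were lowest in replicate 1, as was the sum. Fosb, Junb, Ier2, Zfp36, Hspa1a and Hspa1b were lowest in replicate 2, as were Ccl3 and Ccl4. Ier3 and Atf3 were lowest in replicate 3. The part of early response genes in the ligand levels was not tested.

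Ccl5, also called RANTES, a ligand of Ccr1 and Ccr3 made by T cells and NK cells as well as by myeloid cells, differed the least among the upregulated members. It was at 335, 586 and 628 CPM in brain and at 314, 108 and 135 CPM in stroke blood. Stroke blood replicate 1 reached nearly the lowest brain library, and the groups just failed to overlap. The log2 fold change was 1.33 (SE 0.39, adjusted p = 0.0297). The call was lost without brain replicate 2 (log2 fold change 1.23, adjusted p = 0.0763), without brain replicate 3 (1.17, adjusted p = 0.0935), without stroke blood replicate 2 (1.00, adjusted p = 0.100) and without stroke blood replicate 3 (1.11, adjusted p = 0.132).

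In each group the library with the largest sum of T and NK cell markers was the one with the most Ccl5. The sum of 9 such markers was 721, 1411 and 1445 CPM in brain replicates 1, 2 and 3, and 918, 363 and 288 CPM in stroke blood. In sham blood it was 270, 697 and 384 CPM. Ccl5 amounted to 46.5%, 41.5% and 43.5% of that sum in brain, to 34.2%, 29.8% and 46.7% in stroke blood, and to 29.3%, 28.5% and 30.9% in sham blood. On this scale brain and stroke blood overlapped for Ccl5 through stroke blood replicate 3, and every brain library was above every sham blood library. Ccl3 amounted to 10.1% to 27.4% of the sum in brain, 3.31% to 5.30% in stroke blood and 1.51% to 17.4% in sham blood. Ccl4 amounted to 21.7% to 53.6% in brain, 3.75% to 6.20% in stroke blood and 2.43% to 21.4% in sham blood, where replicate 1 was the highest for both genes. The part of T and NK cells in these levels was not tested. Of the 9 markers, Cd3d, Cd3g and Trbc2 were higher in brain than in stroke blood by the test.

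**Figure D2:**
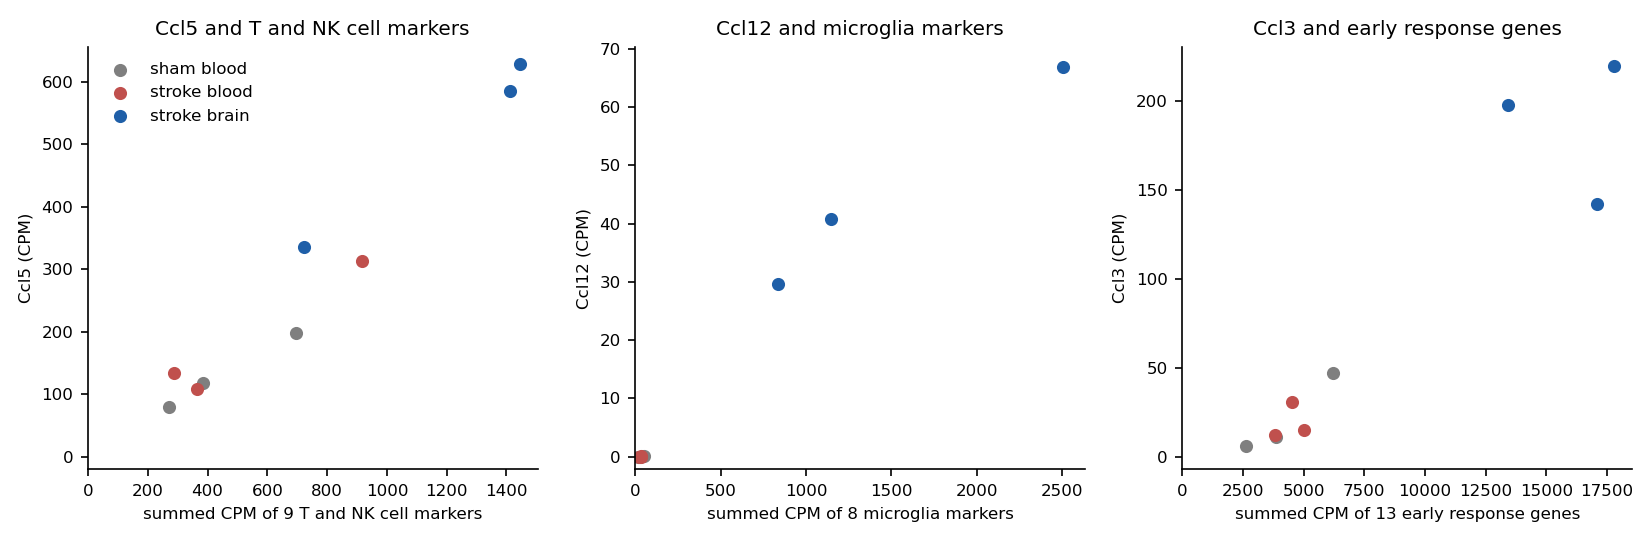
Level of Ccl5, Ccl12 and Ccl3 (vertical axes, CPM) against the summed level of T and NK cell markers, microglia markers and early response genes (horizontal axes, CPM) in each of the 9 libraries, colored by group. In each group Ccl5 is highest in the library with the largest T and NK cell sum. Ccl12 and the microglia sum are near 0 in the 6 blood libraries, and Ccl3 is above 140 CPM only in the brain libraries.

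Ccl6 and Ccl9, 2 Ccr1 ligands with a long N-terminal extension that mouse myeloid cells make constitutively, went the other way. Ccl9 was at 545, 673 and 616 CPM in brain and at 1358, 1299 and 1469 CPM in stroke blood. Every brain library was below every blood library, and the log2 fold change was -1.33 (SE 0.16, adjusted p = 0.000356), a 2.51-fold lower level. Ccl6 was at 1453, 2319 and 2133 CPM in brain and at 2661, 2966 and 2541 CPM in stroke blood. These groups did not overlap either, but the log2 fold change of -0.62 (SE 0.20, adjusted p = 0.039) was under the fold threshold, so that Ccl6 was not a DEG. Per kilobase, Ccl6 exceeded Ccl9 by 5.41 ± 0.769 times in brain, 3.38 ± 0.471 times in stroke blood and 3.45 ± 0.187 times in sham blood. Among the members only Ccl9 shared a stretch of at least 50 bases with transcripts of other genes, and the longest found was 73 bases.

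**Figure D3:**
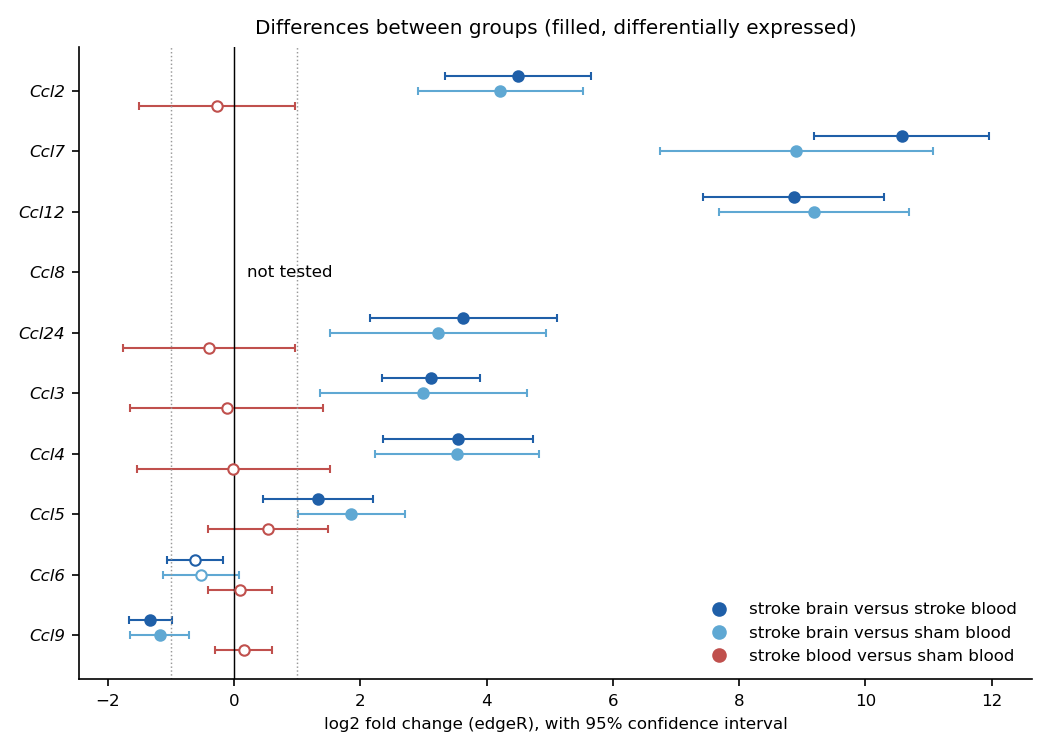
Log2 fold change of each ligand (horizontal axis) with its 95% confidence interval in the 3 comparisons, from edgeR. Filled points are DEGs and dotted lines mark the fold threshold. In both comparisons with brain 7 genes lie to the right and Ccl9 to the left, and every interval of stroke blood against sham blood includes 0.

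Blood monocytes of stroke and sham mice were compared to read the ligands outside the brain. None of the 7 members tested was a DEG in edgeR or in DESeq2. The count of members below 0.05 without adjustment was also 0 in both tools, and the lowest adjusted p was that of Ccl5 (edgeR, adjusted p = 0.62). Of all 12664 genes tested, 0.00790% were DEGs, a single gene, Serpinb10. The libraries of these groups overlapped in all 7, against 18.7% of all genes without overlap.

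Ccl6 and Ccl9 were measured closely, at a log2 fold change of 0.10 (95% interval -0.41 to 0.60) and 0.15 (-0.31 to 0.60). Ccl5 was at 0.53 (-0.42 to 1.49). The intervals were wider for Ccl2 (-0.28, -1.51 to 0.96), Ccl3 (-0.12, -1.65 to 1.41), Ccl4 (-0.01, -1.54 to 1.51) and Ccl24 (-0.40, -1.77 to 0.97), and differences inside these bounds were not detectable. Ccl7 had 17, 0 and 0 counts and Ccl12 had 1, 0 and 3 counts in sham blood, Ccl8 had 2, 0 and 0, and these were not tested.

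Sham blood replicate 1 stood above the rest of its group in several of these genes. Ccl3 was at 46.9, 11.1 and 5.79 CPM in sham blood, Ccl4 was at 57.64, 16.92 and 13.04 CPM, and Ccl2 was at 23.2, 9.82 and 6.44 CPM. In all 3 genes replicate 1 was the highest of its group, as it was in early response genes, with 6208 against 3855 and 2606 CPM and with 3690 counts of Egr1 against 246 and 136. Without this library the log2 fold change of Ccl3 between stroke and sham blood was 1.23 and that of Ccl4 was 0.97, with adjusted p-values of 0.222 and 0.458, so that neither was a DEG.

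Against sham blood the brain macrophages gave the same counts, 7 upregulated and 1 downregulated of 9 tested, with 9.75% of all 13020 genes tested upregulated and 3.67% downregulated. Both comparisons use the same brain libraries, so these values stand beside the earlier ones and are not a repeat of them. Here too Ccl7 and Ccl12 passed the filter on low counts because of the brain libraries. The brain and sham blood libraries did not overlap in 8 of the 9, against 41.7% of all genes tested. The median log2 fold change was 3.23, against 0.01 over all genes.

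Ccl2 differed from sham blood by a log2 fold change of 4.22 (SE 0.57, adjusted p = 0.00338), and Ccl12 by 9.19 (SE 0.65, adjusted p = 0.00029). Ccl7 differed by 8.91 (SE 0.93, adjusted p = 0.00124), where the 17 counts of sham blood replicate 1 were all that sham blood held, a ratio of scaled summed counts of 543 (exact 95% interval 339 to 932). Without sham blood replicate 1 the value of Ccl2 was 4.92. Without sham blood replicate 2 the fitted value of Ccl7 was 8.28, and without replicate 1 no sham blood count of Ccl7 was left to set it against. The fitted value of Ccl12 was 8.57 without sham blood replicate 2 and 10.47 without replicate 3. Ccl8 stood at 2 counts in sham blood, a ratio of 540 (exact 95% interval 149 to 4470). It was not tested in the fit as filtered and was a DEG without brain replicate 1 (adjusted p = 0.00298). Without sham blood replicate 1 (adjusted p = 0.0795), 2 (0.0785) or 3 (0.0827) it missed the threshold. The monocyte chemoattractant group was thus close to absent from blood with or without stroke, apart from Ccl2.

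Ccl4 rose by 3.54 on the log2 scale (SE 0.56, adjusted p = 0.00592). Ccl3 rose by 3.00 (SE 0.71, adjusted p = 0.0231), a call lost without brain replicate 2 (adjusted p = 0.0517), brain replicate 3 (0.0655) or sham blood replicate 2 (0.0781). Ccl24 rose by 3.23 (SE 0.74, adjusted p = 0.0209), lost without brain replicate 3 (log2 fold change 2.22, adjusted p = 0.0595), sham blood replicate 2 (0.0709) or sham blood replicate 3 (0.0794). Ccl5, at 79.0, 198 and 119 CPM in sham blood, rose by 1.86 (SE 0.36, adjusted p = 0.0125), lost without sham blood replicate 3 (0.0517). Without sham blood replicate 1 the log2 fold changes were larger for Ccl3 (4.35), Ccl4 (4.52) and Ccl24 (3.82).

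Ccl9 fell by 1.18 on the log2 scale (SE 0.20, adjusted p = 0.00753). It was at 1576, 1278 and 969 CPM in sham blood, and without sham blood replicate 1 the difference of -0.99 was no longer past the fold threshold. Ccl6, at 3358, 2624 and 1854 CPM in sham blood, overlapped with brain and did not pass the test (-0.53, SE 0.26, adjusted p = 0.197).

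Levels of different genes were compared as CPM per kilobase of exon, each with its SD over 3 libraries. In stroke blood Ccl6 (1517 ± 122) led, followed by Ccl9 (452 ± 28.3), Ccl5 (193 ± 117), Ccl4 (43.3 ± 37.6), Ccl3 (25.2 ± 12.9), Ccl2 (9.27 ± 5.57) and Ccl24 (0.437 ± 0.0947), with Ccl12, Ccl7 and Ccl8 at or near 0. From Ccl5 down to Ccl2 each neighbour lay within the spread of the next. Sham blood had the same order from Ccl6 to Ccl24.

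In brain Ccl6 (1097 ± 254) still led, but Ccl4 (561 ± 86.9) and Ccl5 (538 ± 165), which did not differ beyond their spread, came next. Ccl3 (243 ± 52.0), Ccl2 (234 ± 98.7), Ccl9 (201 ± 21.2), Ccl7 (187 ± 70.9), Ccl12 (85.3 ± 35.7), Ccl8 (33.8 ± 41.5) and Ccl24 (6.05 ± 5.22) followed, and each of these overlapped with its neighbour. Ccl9 was thus 2nd in blood and 6th in brain. Its place rests on the length used: with the length of the shortest transcript, an alternative chosen after seeing the data, it came 2nd in brain.

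The make-up of the ligand RNA differed between brain and blood. Ccl6 and Ccl9 together held 89.3% ± 1.20 of the summed CPM per kilobase of the 10 genes in sham blood, 88.1% ± 6.51 in stroke blood and 40.7% ± 3.23 in brain (SD, n = 3). Ccl3 and Ccl4 held 3.11% ± 2.18, 2.98% ± 1.99 and 26.1% ± 7.64. Ccl2, Ccl7, Ccl12 and Ccl8 held 0.540% ± 0.243, 0.435% ± 0.295 and 16.4% ± 4.24. In all of these the 3 brain libraries lay apart from the 6 blood libraries. The shares rest on the length used, and with the length of the shortest transcript, again chosen after seeing the data, Ccl6 and Ccl9 held 96.3%, 95.7% and 71.2% in sham blood, stroke blood and brain. The summed level of the 8 genes other than Ccl6 and Ccl9 was 1480, 1906 and 2279 CPM per kilobase in brain and 462, 160 and 193 in stroke blood. Within brain, replicate 1 was the lowest library in 8 of the 10 genes, the exceptions being Ccl3 and Ccl4.

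**Figure D4:**
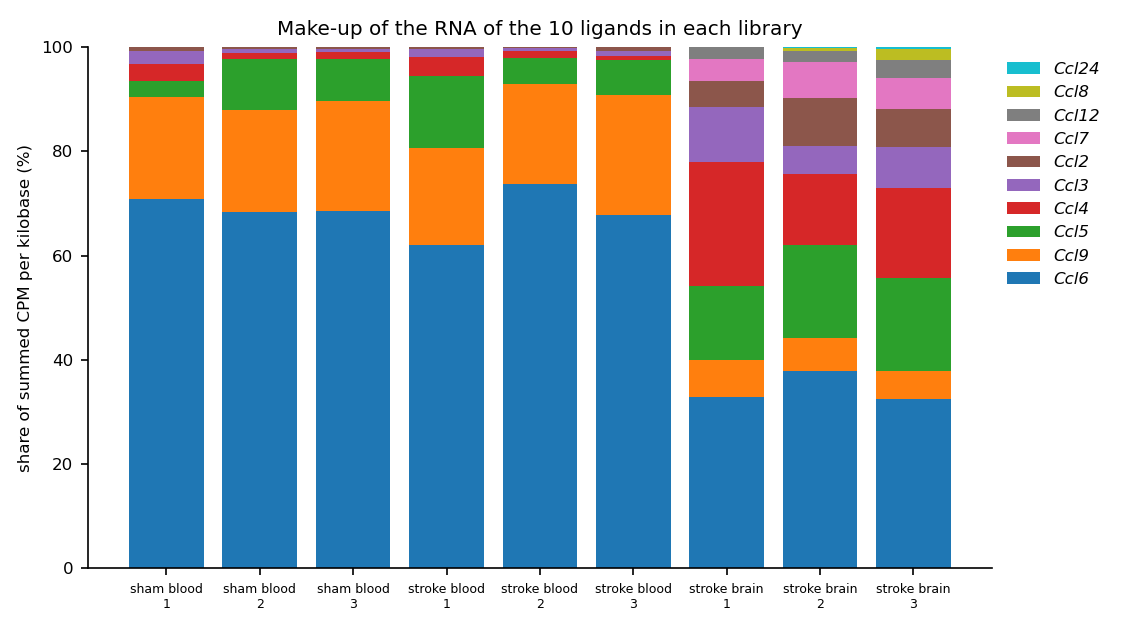
Share of each ligand in the summed CPM per kilobase of the 10 genes (vertical axis, %) in the 9 libraries (horizontal axis). Ccl6 and Ccl9 fill 80.7% to 92.8% of each blood bar and 37.9% to 44.3% of each brain bar, where Ccl4, Ccl5, Ccl3, Ccl2 and Ccl7 take most of the rest.

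Of the 10 genes 9 lie on chromosome 11 (GRCm38) in 2 stretches, and Ccl24 lies on chromosome 5 (chr5:135569937-135573049, minus strand). The proximal stretch holds Ccl2 (chr11:82035571-82037453), Ccl7 (chr11:82045712-82047525), Ccl12 (chr11:82101845-82103400) and Ccl8 (chr11:82115185-82116799), all on the plus strand. After a gap of 1409 kb follow Ccl5 (chr11:83525778-83530518), Ccl9 (chr11:83572919-83578636), Ccl6 (chr11:83587882-83593087) and Ccl3 (chr11:83647844-83649355) on the minus strand, and Ccl4 (chr11:83662584-83664683) on the plus strand. In the proximal stretch Ccl2, Ccl7 and Ccl12 were upregulated in brain, and Ccl8 had 1129 counts in brain against 0 in stroke blood. In the distal stretch Ccl9 and Ccl6, 9.2 kb apart, were the members with lower levels in brain, and they lie between Ccl5 and Ccl3, which were upregulated. No exon of another gene overlapped any of these 10 genes.

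**Figure D5:**
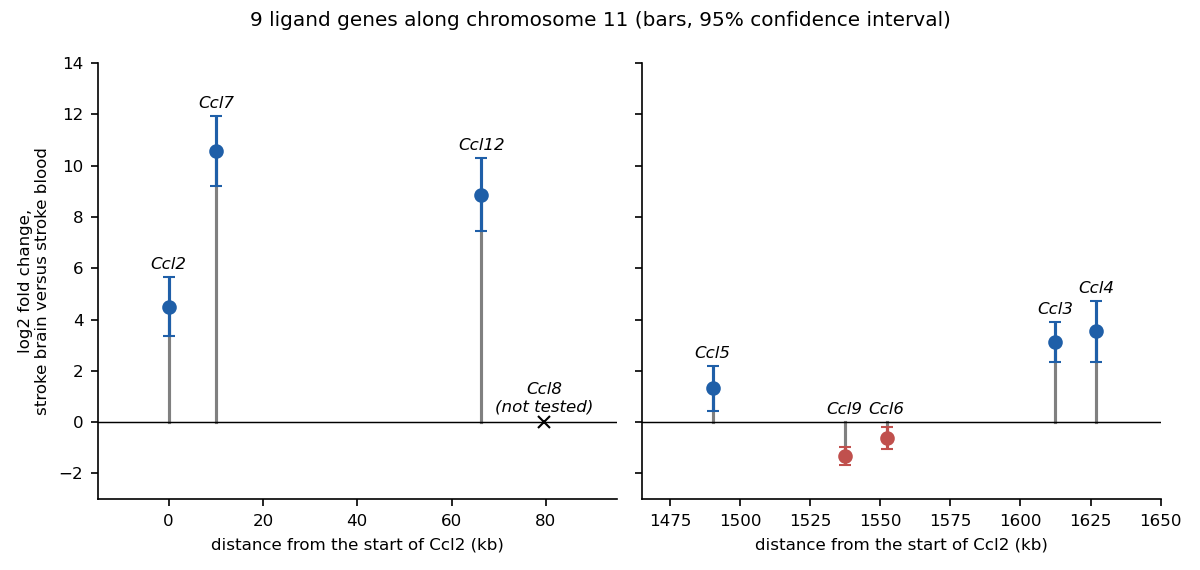
Log2 fold change between stroke brain and stroke blood (vertical axis, with 95% confidence interval) of the 9 ligand genes on chromosome 11 by the distance of the gene from the start of Ccl2 (horizontal axis, kb, in 2 panels that leave out the gap). Blue points are higher and red points lower in brain. Ccl9 and Ccl6 lie below 0 between Ccl5 and Ccl3, and Ccl8 is marked as not tested.

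Promoter sequence from RefSeq (GRCm38.p6) was matched for 5 members, Ccl12, Ccl8, Ccl9, Ccl3 and Ccl6. The 250 bases before the start of 4 of them are shown because they cover the contrast in the data: Ccl12 (chr11:82101595-82101844, plus strand) and Ccl8 (chr11:82114935-82115184, plus strand) were at or near 0 in blood, Ccl3 (chr11:83649379-83649628, minus strand) was upregulated from a measurable level, and Ccl9 (chr11:83578637-83578886, minus strand) was downregulated. Capitals mark matches on either strand to TATAAA, the TATA box, to GAGGAA, a core of sites of the myeloid factor PU.1, and to TGANTCA, the AP-1 motif.
Ccl12: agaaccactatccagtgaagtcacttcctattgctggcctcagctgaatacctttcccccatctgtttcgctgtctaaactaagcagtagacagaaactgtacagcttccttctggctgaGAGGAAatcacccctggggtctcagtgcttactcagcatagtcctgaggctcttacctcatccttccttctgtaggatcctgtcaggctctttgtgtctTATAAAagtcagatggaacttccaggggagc
Ccl8: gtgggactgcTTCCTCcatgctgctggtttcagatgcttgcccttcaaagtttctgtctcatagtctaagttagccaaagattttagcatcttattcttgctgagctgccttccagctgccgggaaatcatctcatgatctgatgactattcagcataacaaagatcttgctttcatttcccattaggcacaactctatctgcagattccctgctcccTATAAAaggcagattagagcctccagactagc
Ccl3: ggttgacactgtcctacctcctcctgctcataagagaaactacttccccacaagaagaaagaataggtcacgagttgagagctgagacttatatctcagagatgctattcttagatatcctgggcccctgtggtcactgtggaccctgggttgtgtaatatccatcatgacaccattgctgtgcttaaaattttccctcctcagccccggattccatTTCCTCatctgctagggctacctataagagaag
Ccl9: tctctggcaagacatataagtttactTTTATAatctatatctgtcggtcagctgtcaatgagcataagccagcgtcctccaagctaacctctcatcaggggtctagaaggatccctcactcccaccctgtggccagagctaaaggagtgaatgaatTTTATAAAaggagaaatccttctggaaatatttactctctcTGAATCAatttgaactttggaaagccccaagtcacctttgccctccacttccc

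Of the 3 members close to absent from blood, Ccl7 had no promoter sequence to search. Ccl12 and Ccl8 had TATAAA on the coding strand at -31 to -26 and at -32 to -27 from the start. Ccl9 had the same letters farther away, at -92 to -87 on the coding strand, overlapping a match on the opposite strand, and at -224 to -219 on the opposite strand. GAGGAA was found in Ccl12 at -130 to -125 and, on the opposite strand, in Ccl8 at -240 to -235 and in Ccl3 at -33 to -28. Ccl9 held the only TGANTCA of the 5, at -53 to -47. Ccl6 held none of these letters. Of 32851 promoters of this length, 12.4% held TATAAA, 23.3% GAGGAA and 6.75% TGANTCA, so a match is a description of the letters and not of a bound site.

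Genes with the most similar course to each member were taken by Pearson r of log2(CPM + 1) over the 9 libraries, of which the brain libraries share tissue and isolation. For this measure alone CPM was scaled to library sizes normalized by TMM and not to library totals. A gene with a wide difference between brain and blood scores high on this measure. Ccl12 was followed most closely by Olfml3 (r = 1.00) and Slco2b1 (r = 0.999), and Olfml3 is on the microglia marker list. Ccl8 was followed by Lyve1 (r = 0.999) and the lectin gene Cd209f (r = 0.997). Ccl3 was followed by Ccrl2 (r = 0.978), a receptor that binds chemerin, and Larp7 (r = 0.977). The closest genes were Mmp13 and Ncaph for Ccl4 (r = 0.991 and 0.988), Cadm1 for Ccl7 (0.997), and Sav1 and Luzp1 for Ccl2 (0.978 and 0.978). They were Ms4a6b and Slfn1 for Ccl9 (0.997 and 0.994), Irgm1 and Cfl2 for Ccl6 (0.978 and 0.969), Epop and Ifitm10 for Ccl5 (0.974 and 0.967), and P3h2 and Bhlhe41 for Ccl24 (0.983 and 0.982).

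Receptors of CC ligands were measured in the same cells. Ccr1, a receptor of Ccl3, Ccl5, Ccl6, Ccl7 and Ccl9, was at 333, 402 and 306 CPM in brain and at 111, 85.2 and 136 CPM in stroke blood, and was upregulated (log2 fold change 1.49, adjusted p = 0.000915). Ccr7 (4.14, adjusted p = 2.68e-05), which guides cells to lymph nodes, and Ccrl2 (3.23, adjusted p = 7.78e-05) were upregulated as well. Ccr2, the receptor of Ccl2, Ccl7 and Ccl12, was at 1186, 1343 and 1263 CPM in brain and at 1805, 2309 and 1827 CPM in stroke blood. Its brain libraries were all lower, but the log2 fold change of -0.80 (adjusted p = 0.00477) was under the fold threshold. Against sham blood Ccr7 and Ccrl2 were upregulated, with log2 fold changes of 2.10 (adjusted p = 0.0172) and 3.00 (adjusted p = 0.0195). Ccr1, at 219, 117 and 306 CPM in sham blood, overlapped with brain there and did not pass the test (0.57, adjusted p = 0.256). Between the blood groups Ccr7 (-2.04, adjusted p = 0.285) and Ccr1 (-0.91, adjusted p = 0.339) did not pass the test.

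Most CC ligands of other cells were at the floor, with 9 of 11 at 3 counts or fewer in stroke blood and 6 of 11 in brain. Of these 11 genes 4 were tested between stroke brain and stroke blood, and Ccl22 and Ccl17 were upregulated and Ccl25 downregulated. Ccl22 and Ccl17 passed the filter on low counts through the brain libraries alone. Ccl22, a Ccr4 ligand made by dendritic cells and macrophages, had 761, 595 and 1156 counts in brain and no count in any blood library, so that the brain level was at least 808-fold higher than stroke blood, with a floor of 3 counts over the group. Ccl17, the other Ccr4 ligand, had 28, 151 and 37 counts in brain and 2, 0 and 3 in stroke blood, a ratio of 41.7 (exact 95% interval 17.6 to 130). Ccl25, a ligand of Ccr9, was at 2.67, 3.09 and 3.29 CPM in brain and at 4.92, 5.80 and 5.61 CPM in stroke blood. Its log2 fold change of -1.005 (adjusted p = 0.0468) was barely past both thresholds. Against sham blood the value of -0.997 (adjusted p = 0.0487) was under the fold threshold, so that Ccl25 was not a DEG there. Ccr4, the receptor of Ccl22 and Ccl17, had 3 counts or fewer in the brain and stroke blood libraries. Markers of dendritic cells summed to 276 to 378 CPM in brain and 46.7 to 83.6 CPM in stroke blood, and 5 of 6 were higher. Siglech, 1 of these 5, is on the microglia list as well, and was at 67.0, 64.9 and 167 CPM in brain replicates 1, 2 and 3. The part of dendritic cells was not tested.

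Genes of the NF-kappaB pathway, which drives many of these ligands, were partly higher. Of 11 genes tested 4 were upregulated between stroke brain and stroke blood. They were Tnfaip3 (log2 fold change 3.35, adjusted p = 4.85e-05), Nfkbiz (2.06, adjusted p = 0.000997) and Nfkbia (1.12, adjusted p = 0.00365), which are induced by the pathway and feed back on it, and the subunit Rela (1.14, adjusted p = 0.000687). The median log2 fold change of the 11 was 0.88. Against sham blood Tnfaip3, Nfkbiz and Nfkbia were upregulated, and between the blood groups no gene of the list was a DEG.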

How the data were processed

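Monocytes/macrophages of 9 libraries (3 sham blood, 3 stroke blood, 3 stroke brain) were sequenced by the authors after SMART-Seq HT amplification. Reads were aligned with HISAT2 to GRCm38 and counted per gene with HTSeq, and the deposited values are these raw counts. Versions, annotation and strand setting are not given in the sources used here. All 53801 listed genes carried an identifier, and 53620 were matched to GENCODE M21.

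Library sizes were normalized by TMM, genes were kept by filterByExpr, and groups were compared pairwise with the quasi-likelihood test of edgeR 4.0.16 in R 4.3.3, with Benjamini-Hochberg adjustment over all genes tested. DEGs differed by more than 1 on the log2 scale at an adjusted p under 0.05. DESeq2 1.42.0, other filters, normalizations, thresholds and sample sets were alternatives. Levels are CPM of the library total. Exact intervals for low counts are conditional binomial and cover counting error only, since reads carried no molecular identifiers. The smallest CPM that could be told from 0 was set at 3 counts. Group labels came from GEO. Replicates were separate mice or pools, and libraries of a group differed by more than counting noise (chi-square over its degrees of freedom 26.2 to 151.8).

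Named genes were all members, up to 4 DEGs of a list by lowest p, genes that a result turned on, and the 2 genes most like each member among 13051 with a mean of at least 10 counts. The members, pathway lists and marker lists were chosen with earlier results of these data known. The tests were tried on simulated counts. Some results covered by these rules are not reported here.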

Additional observations from a re-analysis of the deposited data

How the results depend on the processing

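Between stroke brain and stroke blood 7 to 9 members were DEGs under every alternative run, against 8 as reported, and between the blood groups none was under any. Between stroke brain and sham blood 8 were DEGs as reported, 5 at an adjusted p below 0.01, and 6 to 9 under the others. Ccl8 was tested, and called, under DESeq2, without a filter and with a mean of at least 50 counts in both comparisons with brain. With a library left out, Ccl8 was tested in 4 fits of each comparison with brain. It was called in 2 of them against stroke blood and in 1 against sham blood. Without a fold threshold Ccl6 was the member added between stroke brain and stroke blood. Leaving out each library in turn gave 7 to 9, 0 and 6 to 9 DEGs among the members, and the lost calls are named with Ccl5, Ccl3, Ccl24 and Ccl9 in the report. Only differences between the blood groups turned their sign. Ccl4 moved from -0.01 to 0.01 with a mean of at least 50 counts, 0.07 with upper-quartile normalization and 0.03 with all 9 libraries in a single fit, and Ccl3 moved from -0.12 to 0.30 with the replicate block. With each library left out, the log2 fold change ranged from -0.88 to 0.43 for Ccl2, from -0.62 to 1.23 for Ccl3, from -1.0 to 0.97 for Ccl4, from -0.09 to 0.93 for Ccl5, from -0.11 to 0.33 for Ccl6, from -0.02 to 0.34 for Ccl9 and from -0.74 to 0.19 for Ccl24. The cause was not tested. The replicate numbers did not pair the libraries (correlation of the deviations of same-numbered libraries -0.081 to 0.084), and with the replicate block 8, 0 and 8 members were DEGs. Scaling by library size alone moved the median log2 fold change of all genes between stroke brain and stroke blood from 0.06 to 0.22, and no member changed direction in the comparisons with brain. With the length of the shortest transcript, in sham blood, stroke blood and brain, Ccl6 and Ccl9 held 96.3%, 95.7% and 71.2% of the summed level per kilobase, Ccl3 and Ccl4 0.689%, 0.678% and 9.92%, and Ccl2, Ccl7, Ccl12 and Ccl8 0.166%, 0.134% and 7.39%. The number of libraries and the few counts of Ccl7, Ccl8, Ccl12 and Ccl24 in blood limit precision. Over all genes DESeq2 called 3197, 127 and 2326 DEGs in the 3 comparisons (stroke brain against stroke blood, stroke against sham blood, and stroke brain against sham blood), where edgeR called 2771, 1 and 1748.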

Other observations

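Ccl1, a ligand of Ccr8, was seen in a single library. It had 124 counts in stroke brain replicate 2, or 5.48 CPM, and none in the other 8 libraries. It was not tested, and it was singled out after its values were seen. That library was also the highest in Ccl17, with 151 counts against 28 and 37 in the other brain libraries, and it held 33 counts of Ccr8, between 55 and 9 in brain replicates 1 and 3.

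Genes that interleukin-4 induces in macrophages were higher in brain for 5 of 8 between stroke brain and stroke blood and lower for 1. Arg1, which breaks down arginine, was at 61.2, 58.1 and 73.0 CPM in brain and at 0.241, 0.186 and 0.702 CPM in stroke blood (log2 fold change 7.27, adjusted p = 1.05e-05). Egr2 (5.20, adjusted p = 0.000339), Mrc1 (2.81, adjusted p = 0.000981), Il4ra (1.22, adjusted p = 0.00114) and Cd209a (2.42, adjusted p = 0.00139) were the other 4, and Chil3, a chitinase-like protein, was lower (-1.42, adjusted p = 0.00267). Interferon-stimulated genes gave 1 DEG of 10, the chemokine Cxcl10, at 59.4, 81.8 and 77.1 CPM in brain and 17.2, 22.5 and 32.1 CPM in stroke blood (1.45, adjusted p = 0.00322). The median log2 fold change was 2.15 for the 8 genes, 0.16 for the 10 genes and 0.06 for all genes. Against sham blood 3 of the 8 genes, Arg1, Egr2 and Mrc1, were higher in brain and Chil3 was lower. Il4ra (0.72, adjusted p = 0.188) and Cd209a (1.57, adjusted p = 0.113) did not pass the test in that comparison.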
